A study of Homo sapiens with 9 samples.

Results

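Pseudogene loci are annotated copies or remnants of genes that have lost the ability to make the original protein. The loci described here are those whose gene type in the deposited count table contains the word pseudogene, leaving out olfactory receptor symbols (OR followed by a digit) and symbols starting with MT-. Of the 62703 genes listed, 9802 carry such a type, 447 of them are olfactory receptor loci, and 9355 remained. The rule used no measured value. RNA was sequenced from HK-2, a human proximal tubule line transformed with human papillomavirus 16, in 3 groups of 3 libraries. The untreated libraries carry the numbers 1, 2 and 3. The aristolochic acid libraries, numbered 1, 4 and 6, came from cells exposed to 5 µg/ml of this plant nephrotoxin for 48 h. The MYDGF libraries, numbered 1, 3 and 4, came from cells that received an adenovirus carrying MYDGF, a secreted growth factor, as well as aristolochic acid. All groups are labelled with 12 h of serum starvation and 5% serum. The labels name no control vector or vehicle, so effects of MYDGF and of the virus cannot be told apart. Separate cultures are not stated for the libraries of a group, so every p-value measures only the spread between these libraries, which may be technical. For 4 libraries (untreated 2 and 3, MYDGF 3 and 4) the treatment text names HK-3 or HK-4, while the cell line entry is HK-2 throughout; all were read as HK-2.

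Processed pseudogenes arise when a messenger RNA is copied back into DNA and inserted elsewhere, without introns and usually without a promoter. Unprocessed pseudogenes arise by duplication of a gene with its introns, and unitary pseudogenes are genes that were disabled where they stood. Genes for ribosomal proteins, translation factors, glycolytic enzymes and cytoskeletal proteins have left many processed copies, and fragments of mitochondrial DNA have been inserted into the chromosomes. A read from a recent copy can match the parent gene almost as well as the copy, whereas an old copy carries many differences that identify its reads.

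The following stretches show how little separates 2 abundant recent copies from their coding genes, which bears on how far a count belongs to the locus. Each pair gives a pseudogene locus and the protein-coding gene closest in sequence, over 90 bases of the transcripts of GENCODE 29 (GRCh38), in the sense of the transcript. Capitals in the locus mark the bases that differ from the coding gene. EEF1A1P5 at chr9:133019700-133019789 (plus strand) is set beside exon 3 of EEF1A1 at chr6:73519357-73519446 (minus strand), and the full alignment is 99.7% identical. MTATP6P1 at chr1:633696-633785 (plus strand) is set beside MT-ATP6 of the mitochondrial genome, bases 8527 to 8616, at 98.5% identity over the full alignment.
EEF1A1P5: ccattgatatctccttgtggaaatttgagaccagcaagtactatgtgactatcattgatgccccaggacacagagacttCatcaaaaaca
EEF1A1: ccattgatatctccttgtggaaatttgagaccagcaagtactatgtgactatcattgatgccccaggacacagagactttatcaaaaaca
MTATP6P1: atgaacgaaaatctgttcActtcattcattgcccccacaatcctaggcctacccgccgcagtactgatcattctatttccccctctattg
MT-ATP6: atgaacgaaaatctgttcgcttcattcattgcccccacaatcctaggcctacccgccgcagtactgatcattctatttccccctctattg
Each locus differs from its coding gene at 1 of the 90 bases. Older copies described below are more diverged, such as RPLP0P3 at 90.04% identity to RPLP0 and ACTBP14 at 85.1% to ACTB.

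Processed pseudogenes made up 6236 of the 9355 loci (66.7%) and held 82.3% of all counts on pseudogene loci. The other classes were 1205 unprocessed, 664 transcribed unprocessed, 496 ribosomal RNA, 326 transcribed processed, 233 immunoglobulin or T cell receptor, 127 transcribed unitary, 64 unitary and 4 translated loci. Most loci had no or few reads. In untreated cells 6524 loci had 0 counts over the 3 libraries and 1062 had 1 to 3 counts. These 7586 loci (81.1%) are called near silent below. A further 1043 had over 3 counts but under 1 CPM (counts per 1e6 counts of the library, scaled by the TMM method), 477 lay between 1 and 10 CPM, and 249 reached at least 10 CPM and held 90.6% of the counts. No read was found in any of the 9 libraries for 5126 loci (54.8%). A single locus, EEF1A1P5, held 13.3% of the counts on pseudogene loci, and the top 100 held 78.3%. The near-silent share was 52.0% among transcribed unitary loci, 80.5% among processed loci and 99.0% among ribosomal RNA pseudogenes. The median identity to the closest coding transcript rose with the level, from 85.4% for loci at 0 counts to 98.3% for those at 10 CPM or more.

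Library totals ran from 10.9 to 14.3, in units of 1e6 counts, with the least in aristolochic acid library 6. MYDGF, the overexpressed gene, had 123 to 131 CPM in untreated, 74.2 to 105 CPM in aristolochic acid and 510 to 663 CPM in MYDGF libraries. Of 9 proximal tubule markers 5 reached 1 CPM in untreated cells, and SLC34A1, SLC22A6 and SLC22A8, transporters that define the mature tubule, were at 0 there. The summed level of the 9 was 12.9 to 13.4 CPM in untreated, 22.7 to 33.5 CPM in aristolochic acid and 17.5 to 20.9 CPM in MYDGF libraries. Some markers of other cell types moved with the groups. The summed level of 5 endothelial markers was 1.29 to 1.43 CPM in untreated, 7.85 to 13.8 CPM in aristolochic acid and 3.83 to 4.31 CPM in MYDGF libraries, and that of 6 distal nephron and podocyte markers was 2.77 to 3.57, 9.72 to 15.5 and 5.15 to 7.05 CPM, with UMOD, SLC12A1 and AQP2 at 0 in untreated cells. The sum of 5 leukocyte markers, with CD3E at 0 in untreated cells, went the other way, at 12.1 to 18.01, 8.10 to 12.9 and 5.44 to 6.48 CPM. The sum of 5 fibroblast markers was 10.3 to 12.9, 8.55 to 14.4 and 13.4 to 15.7 CPM, and overlapped between untreated and aristolochic acid libraries. Their part in the results below was not tested.

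The share of all counts that fell on pseudogene loci barely differed between groups, but more loci had a read after aristolochic acid. The share was 2.55, 2.59 and 2.61% in untreated, 2.60, 2.55 and 2.49% in aristolochic acid and 2.56, 2.69 and 2.65% in MYDGF libraries. The ranges of untreated and aristolochic acid libraries overlapped (exact two-sided permutation p = 0.5). After every library was thinned to the lowest total, 2132, 2150 and 2081 loci had a count in untreated cells. The number was 2610, 2929 and 2800 with aristolochic acid, above every untreated library. With MYDGF it was 2527, 2390 and 2466, between the other groups and overlapping neither. Counted at 5 or more reads without thinning, the aristolochic acid libraries had 1264, 1519 and 1335 loci, which overlap the 1268, 1191 and 1284 loci of the MYDGF libraries (exact permutation p = 0.3). Each of the 3 differences after thinning gave p = 0.1 in the exact two-sided permutation test, the smallest that 3 against 3 libraries allow. The added reads were at low loci. The summed level of the loci at 0 counts in untreated cells, 0 by definition there, was 126, 291 and 228 CPM with aristolochic acid and 79.6, 51.7 and 66.3 CPM with MYDGF. The summed level of loci at 10 CPM or more was 24008 ± 446 CPM (SD, n = 3) in untreated, 22455 ± 738 CPM in aristolochic acid and 24013 ± 802 CPM in MYDGF libraries. Transcribed unprocessed loci took 0.0497 ± 0.0017% of all counts in untreated and 0.0729 ± 0.0065% in aristolochic acid libraries without overlap (exact permutation p = 0.1). The difference of 0.0231 percentage points was 0.0126 without the 10 loci with the most counts and 0.000163 when only loci that overlap no other gene were summed.

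**Figure D1:**
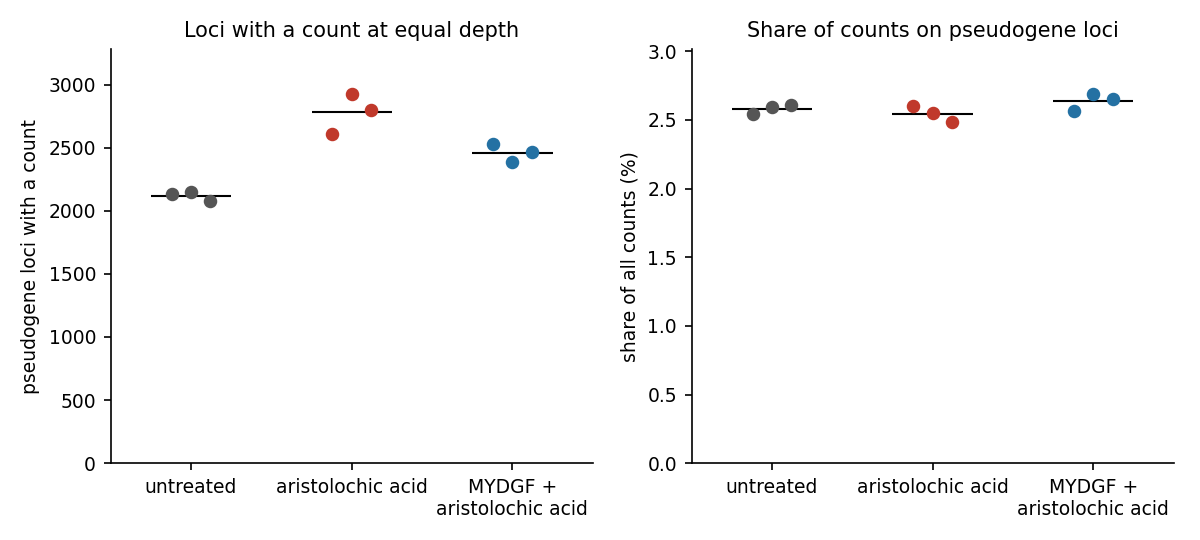
Number of pseudogene loci with at least 1 count after thinning to equal depth (left) and share of all counts on pseudogene loci in percent (right), with 1 point per library and the group mean as a line. The aristolochic acid libraries hold 2610 to 2929 loci and the untreated ones 2081 to 2150, while the shares all lie between 2.49 and 2.69%.

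Enough reads for a test were present at 1011 loci (10.8%). With aristolochic acid 283 of them were higher (28.0%) and 174 lower (17.2%) at an adjusted p under 0.05 in edgeR's quasi-likelihood test, against 29.7% higher and 29.3% lower among all 18267 genes tested. At 2-fold or more, 182 were higher and 49 lower, where 14.3% and 11.0% of all genes tested were. The direction went with the untreated level. Of the 249 loci at 10 CPM or more, all tested, 54 were higher and 80 lower, and only 4 and 9 of them by 2-fold. Of the 477 loci between 1 and 10 CPM, 473 were tested, with 78 higher and 89 lower. Of the 1043 loci with over 3 counts but under 1 CPM, 241 were tested, with 103 higher and 5 lower; a locus that low passes the filter more easily where it is high, so the number tested is itself shaped by the change. By class, 31 transcribed unprocessed loci were higher and 7 lower of 99 tested, 19 and 12 of 50 transcribed unitary loci, and 180 and 123 of 683 processed loci. Loci under 1 CPM in untreated cells gave 16 of the 31, 15 of the 19 and 96 of the 180. No ribosomal RNA, immunoglobulin or T cell receptor pseudogene had enough reads for the test.

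Among the near-silent loci, those lying past the 3' end of an active gene on its strand rose most often. An active gene is here a protein-coding gene at a mean of 5 CPM or more in untreated cells, of which there were 11063. A locus counts as inside an active gene if it overlaps any part of it, so a locus that reaches past an end is also counted there. Of the 7586 near-silent loci, 48 rose with aristolochic acid at an adjusted p under 0.05 and at least 2-fold, 41 of them on the strand of an active gene that they lie in or near. Loci within 100 kb beyond the 3' end of an active gene on its own strand rose in 28 of 580 cases (4.83%). The count was 5 of 402 (1.24%) for loci inside an active gene on its strand and 8 of 751 (1.07%) for loci within 100 kb before the 5' end on its strand. On the opposite strand it was 0 of 713 beyond the 3' end, 2 of 838 inside and 0 of 696 before the 5' end. With no active gene within 100 kb it was 5 of 3594 (0.139%). A locus this low is tested only where another group has reads, so every near-silent locus tested had to differ; the denominators are therefore all near-silent loci, tested or not. Near-silent genes of the table that are not among these loci also rose most often beyond the 3' end on the same strand, but their order after that position differed. Their shares were 8.36% beyond the 3' end on the same strand, 2.25% before the 5' end on the same strand, 0.550% inside on the same strand, 1.22%, 0.698% and 0.394% at the 3', inside and 5' positions of the other strand, 0.266% where no active gene was so near and 1.29% over all positions. Leaving out any untreated library, any MYDGF library or aristolochic acid library 1 moved the 28 loci to 48 to 51, where the filter on low counts then asks for 2 libraries in place of 3, and leaving out aristolochic acid library 4 or 6 gave 29 and 31. The strand setting of the counting is not known here.

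The summed levels, which rest on all near-silent loci of a position, were also highest beyond the 3' end on the same strand with aristolochic acid, while the other positions came in another order than by share. Per megabase of exon, loci inside an active gene on its strand had 184, 347 and 329 CPM with aristolochic acid and those beyond the 3' end 149.8, 379 and 299 CPM, which overlap. Beyond the 3' end on the same strand they summed to 4.52, 5.96 and 6.05 CPM in untreated libraries. With aristolochic acid the sum was 90.8, 230 and 181 CPM, far above every untreated library and lowest in library 1. With MYDGF it was 52.2, 30.7 and 45.4 CPM, below every aristolochic acid library and above every untreated one. With no active gene within 100 kb the sum was 13.4 ± 1.7 CPM in untreated (SD, n = 3), 50.9 ± 16.3 CPM in aristolochic acid and 24.9 ± 3.2 CPM in MYDGF libraries, and without the 10 loci with the most counts the difference between the first groups of 37.5 CPM became 19.2 CPM. The groups did not overlap in either sum (exact two-sided permutation p = 0.1 for each pair of groups). Low untreated reads chose these loci, so the untreated values are low by construction. Chosen the other way round, of 6998 loci near silent with aristolochic acid 0 had enough reads in another group to be tested, and of 7262 loci near silent with MYDGF likewise 0.

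**Figure D2:**
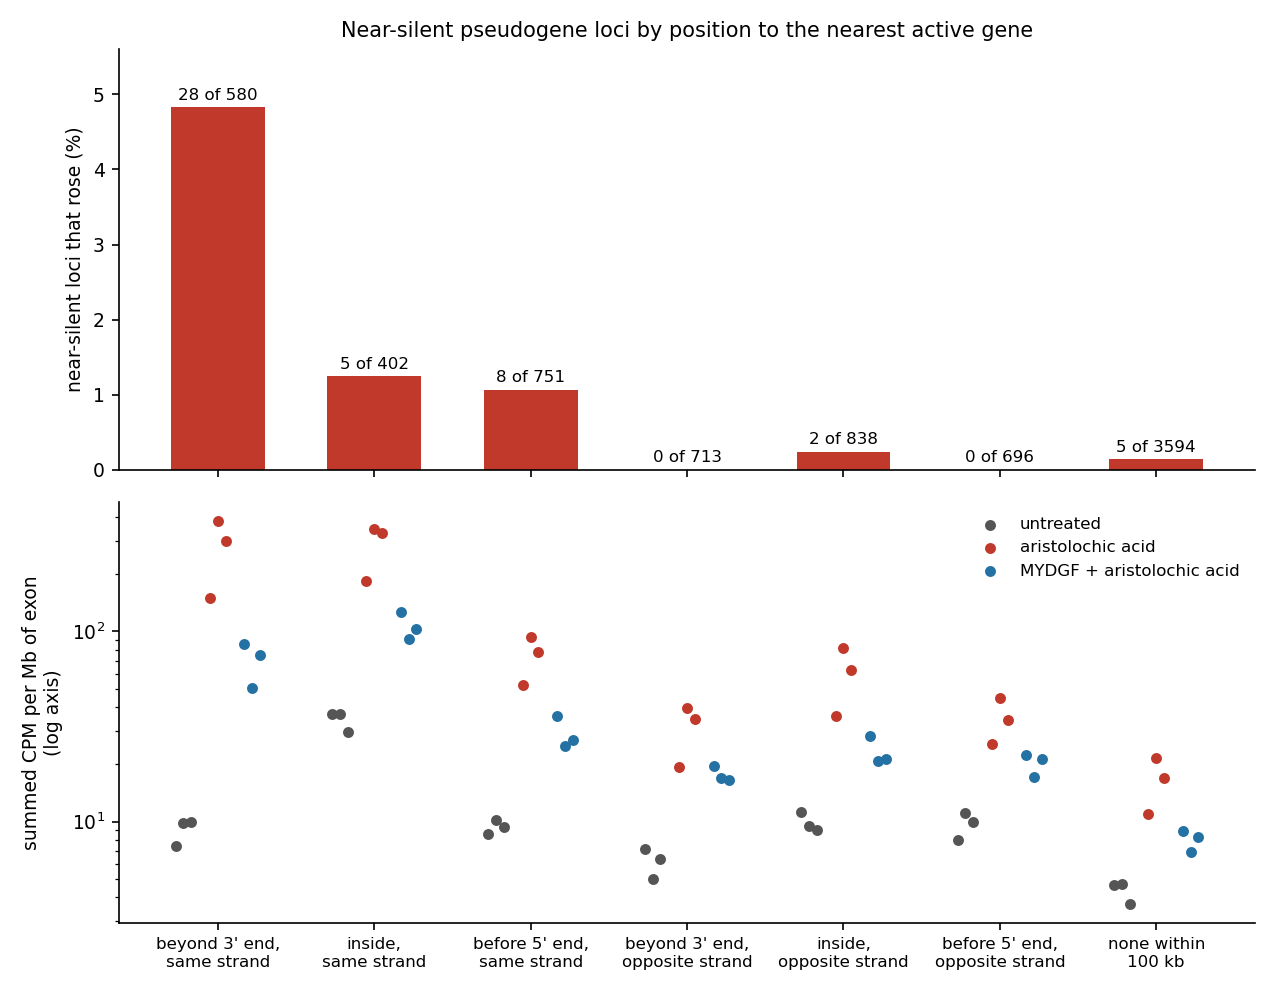
Share in percent of the near-silent pseudogene loci that rose with aristolochic acid, by position to the nearest active gene (top), and summed CPM per megabase of exon in each library on a log axis, with 1 point per library (bottom). The share is 4.83% beyond the 3' end on the same strand and 0.139% with no active gene within 100 kb, and at each position the MYDGF libraries lie above the untreated libraries and, except for 1 library beyond the 3' end on the opposite strand, below the aristolochic acid libraries.

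Beyond a 3' end on the same strand the signal was lower past 30 kb than nearer to the gene. Per megabase of exon, the aristolochic acid libraries had 205, 530 and 432 CPM at 0 to 10 kb and 221, 594 and 456 CPM at 10 to 30 kb. They had 139, 313 and 257 CPM at 30 to 60 kb and 47.7, 124 and 90.4 CPM at 60 to 100 kb. The nearest bins overlapped each other, and the farthest bin lay below the nearest in each library. Untreated libraries ran from 4.30 to 20.8 CPM per megabase over the 4 bins. At least 1 count with aristolochic acid was found for 80 of 95 loci at 0 to 10 kb (84.2%) and for 56 of 122 at 60 to 100 kb (45.9%). From near to far, 6 of 95, 14 of 173, 6 of 190 and 2 of 122 loci rose in the bins. Before the 5' end on the same strand 6 of 132 loci rose within 10 kb and 2 of 619 between 10 and 100 kb. There the mean of the aristolochic acid libraries was 225, 71.2, 33.6 and 25.7 CPM per megabase in the same bins. On the opposite strand the means were 44.5, 43.4, 24.1 and 19.3 CPM beyond the 3' end and 48.9, 31.5, 28.2 and 39.5 CPM before the 5' end.

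The active genes themselves showed smaller differences. The 28 risen loci beyond a 3' end follow 28 different active genes, from 1.72 to 87.6 kb away with a median of 24.2 kb. Of these genes 9 were higher with aristolochic acid, 6 lower and 13 not called, beside 29.7% higher and 29.3% lower among all genes tested. By 2-fold or more 2 of them were higher, where 14.3% of all genes tested were. The median log2 fold change of the 28 active genes was 0.11, with a range from -0.54 to 1.09, whereas the loci behind them rose at least 2-fold by definition. The risen near-silent loci were also longer, with a median of 1192.5 bases of exon against 583 over all near-silent loci. A longer locus gathers more reads at equal coverage and passes the filter more easily. How far this shaped the difference in length was not tested. Of the 48, 33 were processed and 7 were transcribed unitary, of 5018 and 66 near-silent loci in these classes. Their identity to the closest coding transcript, over the 28 that align by 90% or more of their length, ran from 70.1 to 93.8%. None of the 258 near-silent loci with 95 to 98% identity and none of the 88 with 98% or more were tested.

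ACTBP14, a beta-actin copy inside KIFBP, showed the highest level of these loci. It had 0.0792, 0 and 0 CPM in untreated, 12.4, 28.9 and 23.5 CPM in aristolochic acid and 5.51, 2.498 and 4.31 CPM in MYDGF libraries. With 1 read over the untreated libraries the ratio of CPM was 829 (95% counting interval 148 to 3.28e+04), and the adjusted p of the edgeR test was 1.2e-05. ACTB, the actin gene that it copies, had a log2 fold change of 0.30 ± 0.09 (SE), and KIFBP one of -0.06 (adjusted p = 0.76). The groups did not overlap at ACTBP14, whose alignment with ACTB is 85.1% identical. ACTBP14 and the near-silent loci named below entered the test only through reads in treated libraries. That they differed from untreated cells was therefore fixed by the filter, and their p-values and separation are a description.

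RPLP0P3, a copy of the ribosomal stalk protein gene RPLP0, lies 12.0 kb beyond the 3' end of NFKBIA, which encodes the inhibitor of NF-kB. RPLP0P3 had 0.158, 0.0839 and 0 CPM in untreated, 3.97, 18.5 and 10.9 CPM in aristolochic acid and 0.919, 0.390 and 0.777 CPM in MYDGF libraries. Every MYDGF library lay below every aristolochic acid library and above every untreated one. As at ACTBP14, the low untreated reads and the filter had fixed that the locus differed from untreated cells. The ratio of aristolochic acid to untreated cells was 144 (95% counting interval 49.0 to 702; adjusted p = 1.1e-04), while RPLP0 fell by 0.46 on the log2 scale (adjusted p = 0.0044) and NFKBIA rose by 0.25 (adjusted p = 0.028). KRT18P6, a keratin 18 copy 25.3 kb beyond RALGAPA1, had 1.46, 3.55 and 3.31 CPM with aristolochic acid against at most 0.0839 CPM in an untreated library. COP1P1, a copy of the ubiquitin ligase gene COP1, lies 5.27 kb beyond PTPRM, a receptor phosphatase gene. COP1P1 had 1.30, 5.25 and 4.51 CPM with aristolochic acid and 1 count over the untreated libraries, while PTPRM fell by 0.54 on the log2 scale (adjusted p = 0.0013).

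CTAGE11P lies 43.2 kb beyond TBC1D4 and had no count in untreated cells. It had 4.05, 9.74 and 9.57 CPM with aristolochic acid, at least 98.9-fold higher than a floor of 3 counts over the untreated group, and 2.83, 0.937 and 1.55 CPM with MYDGF. RCC2P7, a copy of the chromosome condensation regulator gene RCC2, lies 24.8 kb beyond DST and was at least 49.5-fold higher with aristolochic acid. NDUFB4P11 and MROH3P lie 2.24 kb beyond TNFAIP2 and 1.72 kb beyond INAVA, and were at least 42.0-fold and 43.1-fold higher. These are the nearest of the named loci to a 3' end, and their active genes rose by 0.96 (TNFAIP2, adjusted p = 8.8e-05) and 1.06 (INAVA, adjusted p = 2.8e-04) on the log2 scale.

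Disabled single-copy genes, the unitary class, were also among the highest risers. KIF28P, the remnant of a kinesin gene that overlaps AHCTF1 on its strand, had 0 counts in untreated cells and 4.53, 10.4 and 8.37 CPM with aristolochic acid, at least 99.3-fold higher. It had 1.53, 0.859 and 0.777 CPM with MYDGF. C6orf201 overlaps ECI2 on the opposite strand and had 1 count in untreated cells, with 4.29, 10.7 and 8.55 CPM after aristolochic acid, while ECI2, which encodes an isomerase of fatty acid oxidation, fell by 0.68 on the log2 scale (adjusted p = 2.4e-04). Without strand, reads of C6orf201 and ECI2 cannot be told apart. ADGRF2, an adhesion receptor remnant 29.2 kb beyond CD2AP, had 2.43, 8.58 and 5.89 CPM with aristolochic acid and 1 count in untreated cells. ADAM5, SALL4P1 and RPL7AP52 were among the 5 loci that rose with no active gene within 100 kb. ADAM5, also transcribed unitary, had 0 counts in untreated cells and 3.72, 7.96 and 4.60 CPM with aristolochic acid, at least 70.3-fold higher. SALL4P1 was at least 32.5-fold higher, and RPL7AP52 had a ratio of 26.5 (95% counting interval 8.72 to 131).

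In 46 of the 48 risen loci library 1 was the lowest of the aristolochic acid libraries. All 48 lie above every untreated library, where 65.9% of all genes tested have groups that do not overlap, but such loci were chosen by that same contrast.

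**Figure D3:**
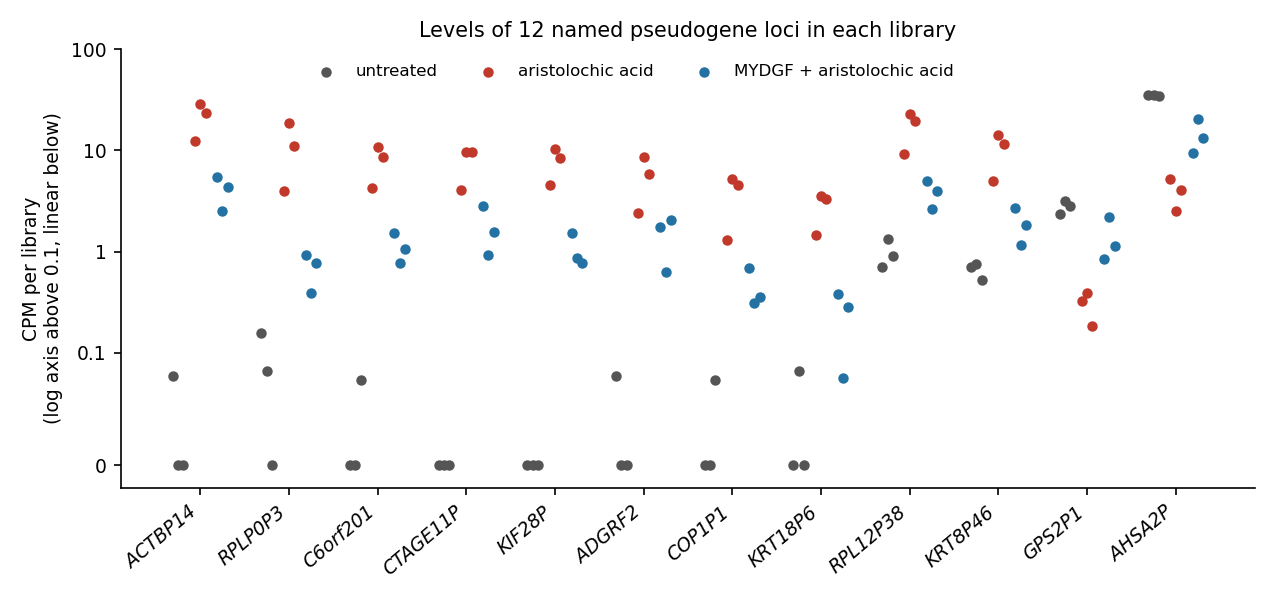
CPM of 12 named pseudogene loci in each library, on an axis that is logarithmic above 0.1 CPM and linear below, with 1 point per library. From ACTBP14 to KRT8P46 the aristolochic acid libraries lie highest, with ACTBP14 at 12.4 to 28.9 CPM, while GPS2P1 and AHSA2P are highest in untreated cells.

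Loci with more untreated reads gave these counts by position, beside 29.7% higher and 29.3% lower among all genes tested. Beyond the 3' end of an active gene on its strand, 56 were higher and 11 lower of 123 tested, and inside on its strand 48 and 9 of 114. Before the 5' end on the same strand it was 24 and 15 of 100. On the opposite strand 9 were higher and 19 lower of 82 beyond the 3' end, 29 and 25 of 132 inside and 23 and 28 of 128 before the 5' end, and with no active gene within 100 kb 45 and 67 of 283. Loci under 1 CPM in untreated cells, which lean to higher through the filter, gave 34 of the 56 and 22 of the 48. No test between positions was made. RPL12P38, 7.16 kb beyond APPBP2, had 0.713, 1.34 and 0.908 CPM in untreated and 9.15, 22.7 and 19.7 CPM in aristolochic acid libraries, a log2 fold change of 4.11 ± 0.42 (adjusted p = 4.9e-05). KRT8P46, a keratin 8 copy inside MANBA on its strand, rose by 3.93 ± 0.48, while KRT8 rose by 0.72. HMGB2P1, inside the kinase gene STK11, rose by 2.96 ± 0.28 from 1.35, 0.923 and 0.908 CPM to 7.61, 8.81 and 8.46 CPM, and HMGB2 was not called (log2 fold change 0.28, adjusted p = 0.17).

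The largest falls included loci whose coding gene fell with them and disabled genes. GPS2P1, a copy of the corepressor subunit gene GPS2, had 2.38, 3.19 and 2.80 CPM in untreated and 0.324, 0.386 and 0.184 CPM in aristolochic acid libraries. It fell by 3.16 on the log2 scale (SE 0.44, adjusted p = 2.3e-04), and GPS2, 93.2% identical, fell by 2.89. AHSA2P, a disabled cochaperone gene that overlaps USP34 on the opposite strand, fell from 35.2, 35.7 and 34.3 CPM to 5.26, 2.55 and 4.05 CPM. COX20P1 and DNAJC19P9, copies of genes for a cytochrome oxidase assembly factor and a mitochondrial cochaperone, fell by 2.38 and 2.47, and COX20 and DNAJC19 fell by 2.47 and 2.09. TMEM198B and SSPOP, both transcribed unitary, fell by 1.44 ± 0.13 and 1.75 ± 0.25. In each of these loci every aristolochic acid library lay below every untreated one. The largest falls were named only among loci whose groups do not overlap, so this separation is no further result. Of all genes tested, 65.9% have groups that do not overlap.

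Loci moved more closely with their closest coding gene at 95% identity or more than below it. Among 761 tested pairs that align over 90% or more of the locus, the correlation of the log2 fold changes with aristolochic acid across pairs was 0.69 for the 224 pairs with at least 98% identity and 0.57 for 286 pairs with 95 to 98%. It was 0.09 for 175 pairs with 90 to 95% and 0.31 for 76 pairs under 90%. Pairs are not independent, since loci share a coding gene and all values come from the same 9 libraries. The filter also shapes the diverged pairs. Of 81 tested loci under 90% identity, 54 were under 1 CPM in untreated cells and gave 41 of the 47 higher ones. At 90 to 95% it was 89 of 177, with 41 of the 53 higher ones, and at 98% or more 13 of 226. Of the loci called, the coding gene was called in the same direction for 67 of 100 at 98% or more, 69 of 106 at 95 to 98%, 25 of 68 at 90 to 95% and 23 of 56 under 90%.

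Levels per length also depended on identity. On the FPKM scale of the authors, the mean of untreated libraries was higher at the locus than at its coding gene in 162 of 224 pairs with at least 98% identity (72.3%) and in 43 of 286 pairs with 95 to 98% (15.03%). It was higher in 10 of 175 pairs with 90 to 95% and 4 of 76 under 90%. EEF1A1P5 stood at 2754 FPKM and EEF1A1 at 95.2 FPKM, PPIAP22 at 1193 FPKM and PPIA at 32.1 FPKM, and RPS2P5 at 846 FPKM and RPS2 at 39.9 FPKM. The sources used here do not say how reads that match several places were assigned, so a level at such a locus cannot be told apart from that of its coding gene.

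**Figure D4:**
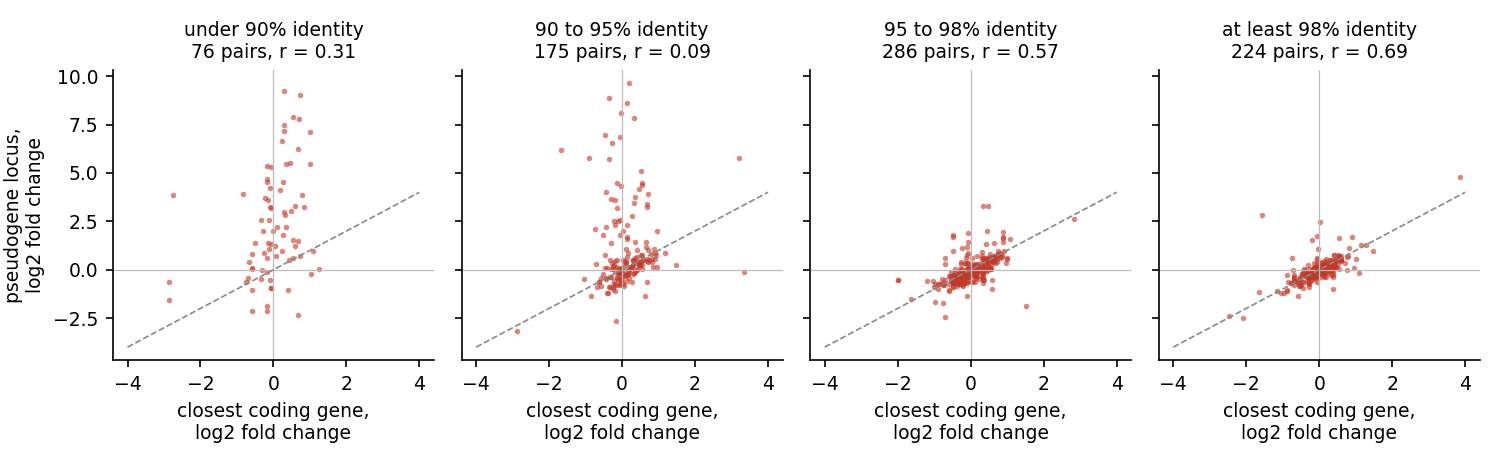
Log2 fold change with aristolochic acid of a pseudogene locus (vertical) against that of its closest coding gene (horizontal) in 4 ranges of sequence identity, with 1 point per pair and a dashed line where both are equal. Points gather near the line at 98% identity or more (r = 0.69, 224 pairs) and stand above it over coding genes near 0 below 95% identity.

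Single pairs show both cases. ITGB1P1, listed as 100% identical to the integrin gene ITGB1, had 517, 532 and 517 CPM in untreated and 352, 344 and 318 CPM in aristolochic acid libraries, a fall of 0.63 on the log2 scale (adjusted p = 1.9e-05) while ITGB1 fell by 0.59. WBP1P1 fell by 1.52 and WBP1 by 1.64. IFIT1P1 and IFITM3P3, copies of interferon-induced genes, rose by 3.87 ± 0.47 and 5.75 ± 0.72, while IFIT1 fell by 2.76 and IFITM3 by 0.90. Both copies were under 1 CPM in untreated cells and passed the filter only through treated libraries. A fall of either could not have been called. IFIT1P1 had 0.0792, 0.0839 and 0.378 CPM in untreated and 2.75, 3.09 and 2.67 CPM in aristolochic acid libraries. It lies inside BRCA2 on its strand, and IFITM3P3 lies 10.6 kb beyond ILRUN. SDAD1P1 fell by 2.60 ± 0.29 while SDAD1, a gene of ribosome export, rose by 0.46.

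Grouped by the gene they derive from, most of the tested copies of mitochondrial DNA and of ferritin fell. Counts of each family stand beside 29.7% higher and 29.3% lower among all genes tested, and tested loci under 1 CPM in untreated cells lean to higher because the filter admits them where they are high. Of 402 nuclear copies of mitochondrial DNA 8 were tested, with 0 higher and 7 lower after aristolochic acid. MTATP6P1, MTND2P28 and MTCO1P12 lie side by side on chromosome 1. MTATP6P1 had 477, 519 and 469 CPM in untreated, 308, 334 and 355 CPM in aristolochic acid and 325, 342 and 307 CPM in MYDGF libraries, a fall of 0.56 ± 0.07 on the log2 scale while MT-ATP6 fell by 0.70. MTND2P28, MTCO1P12 and MTND4P12 fell by 0.66, 0.84 and 1.05. MT-ND2, MT-CO1 and MT-ND4 fell by 0.78, 0.52 and 0.59. The summed level of the list was 0.640 ± 0.039 of the untreated mean with aristolochic acid and 0.661 ± 0.043 with MYDGF, with no overlap with the untreated libraries (exact permutation p = 0.1).

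Of 41 ferritin copies 11 were tested, with 1 higher and 8 lower, where 29.7% and 29.3% of all genes tested were. FTH1P7 had 52.3, 59.98 and 65.98 CPM in untreated and 40.6, 32.1 and 37.9 CPM in aristolochic acid libraries, and fell by 0.69 ± 0.11, while the ferritin heavy chain gene FTH1 fell by 0.48. FTH1P23 and FTH1P11 fell by 0.89 and 0.61. Of 104 copies of glycolytic enzyme genes 16 were tested, with 2 higher and 5 lower, and both higher ones were under 1 CPM in untreated cells and entered the test through reads in treated libraries. GAPDHP1 had 35.5, 36.5 and 37.2 CPM in untreated, 22.7, 20.2 and 21.6 CPM in aristolochic acid and 33.5, 42.7 and 37.8 CPM in MYDGF libraries, and TPI1P1 and LDHAP4 fell by 0.37 and 0.54. Their summed level was 0.788 ± 0.011 of the untreated mean with aristolochic acid and 1.05 ± 0.08 with MYDGF.

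Ribosomal protein copies, the largest family, had 30 higher and 40 lower of 160 tested among 1408 (18.8% and 25%), below and near the 29.7% and 29.3% of all genes tested. Of the 30, 20 were under 1 CPM in untreated cells. Their summed level was 0.924 ± 0.047 of the untreated mean. RPL7AP45 fell by 2.11 ± 0.33 and RPL13AP20 rose by 1.82 ± 0.18, from 4.68, 5.37 and 3.86 CPM to 13.4, 19.2 and 16.4 CPM. Of 151 translation factor copies 31 were tested, with 10 higher and 4 lower. EIF2S2P4 rose by 0.79 ± 0.08 beside 0.74 for EIF2S2, which encodes a subunit of the initiation factor that carries the first transfer RNA.

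Copies of cytoskeleton and keratin genes had 12 higher and 2 lower of 24 tested among 208. Of these 24, 11 were under 1 CPM in untreated cells and gave 7 of the 12. How far the filter shaped this lean was not tested. TMSB4XP8 fell by 1.20 while TMSB4X fell by 1.04. Copies of chromatin and hnRNP genes had 18 higher and 5 lower of 46 tested among 398 (39.1% and 10.9%), beside 29.7% and 29.3% of all genes tested, and 6 of the 18 were under 1 CPM in untreated cells. NPM1P27 and HNRNPLP2 rose by 0.73 and 0.69. Copies of chaperone and heat shock genes had 5 higher and 3 lower of 16 tested among 118. DNAJB6P1 rose by 0.57 beside 1.01 for DNAJB6 and HSPB1P1 fell by 1.67 while HSPB1 fell by 0.97. The unitary loci, both kinds together, had 22 higher and 13 lower of 55 tested among 191. Of these 55, 22 were under 1 CPM in untreated cells and gave 17 of the 22 higher ones. Over all 18267 genes tested the median log2 fold change was -0.01, and over the 1011 tested pseudogene loci it was 0.07.

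Of 29 transcribed pseudogenes listed for roles of their own, 12 were tested, with 3 higher and 2 lower. PDIA3P1 fell by 0.51 ± 0.06. HLA-H, the only one of 12 HLA class I pseudogenes with enough reads, rose by 1.19 ± 0.16. Of 15 interferon-response pseudogenes 2 were tested, IFIT1P1 and IFITM3P3, and both entered the test only through reads in treated libraries, so that they differed was fixed by the filter. Of 9 metallothionein pseudogenes the 1 tested was not called, and of 3 SDHA copies SDHAP1 rose by 0.44 and SDHAP3 fell by 1.06 on the log2 scale.

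**Figure D5:**
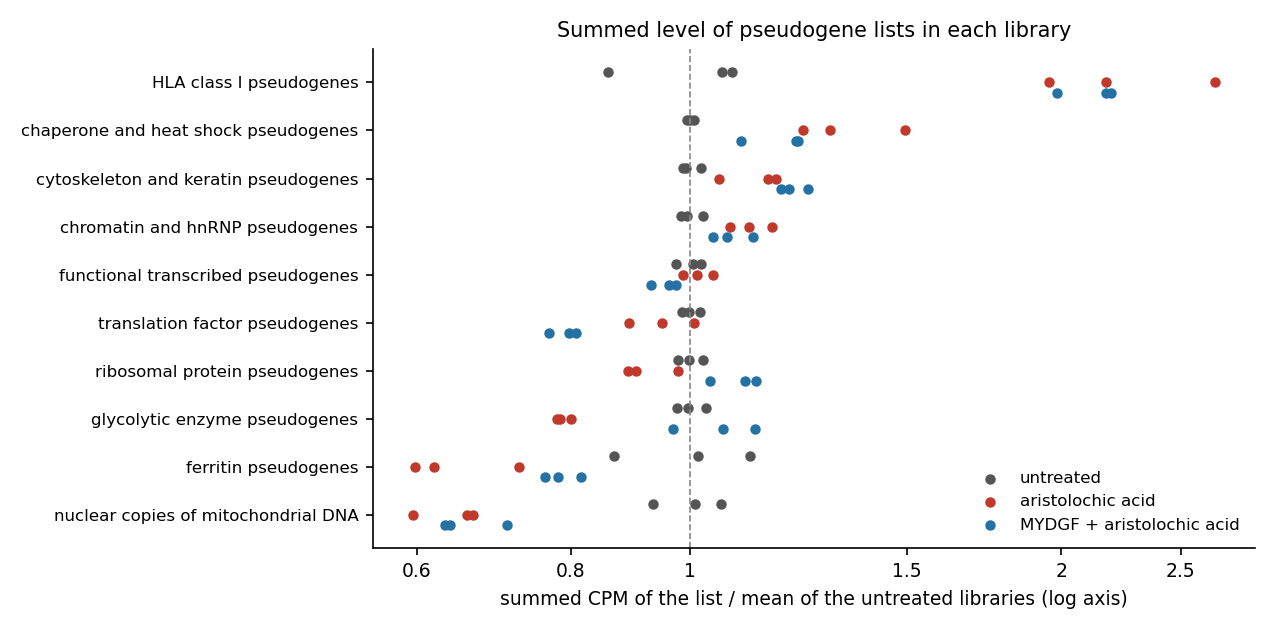
Summed CPM of 10 families of pseudogene loci in each library, divided by the mean of the untreated libraries, on a log axis, with 1 point per library. Copies of mitochondrial DNA lie between 0.596 and 0.711 in all treated libraries, and HLA class I pseudogenes between 1.95 and 2.66.

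With MYDGF as well as aristolochic acid, compared with aristolochic acid alone, fewer loci were called, and the calls at low loci were mostly lower. Of 1011 tested, 107 were higher (10.6%) and 125 lower (12.4%), against 14.7% and 14.7% of all genes tested. At 2-fold or more 16 were higher and 101 lower, where 2.96% and 6.42% of all genes tested were. These counts leaned on single libraries: the 107 became 70 without aristolochic acid library 6 and 70 without MYDGF library 3, and the 125 became 191 without aristolochic acid library 1, 77 without aristolochic acid library 4 and 81 without MYDGF library 3. Of the 241 tested loci with over 3 counts but under 1 CPM in untreated cells, 4 were higher and 51 lower. Such loci pass the filter more easily where aristolochic acid reads are high, which favours a fall against that group. Loci at 10 CPM or more went the other way, with 79 higher and 16 lower of 249. Of the 48 loci that rose from near silence 39 were lower by 2-fold or more with MYDGF, and in 43 every MYDGF library lay below every aristolochic acid library, where 44.3% of all genes tested did not overlap. They were chosen for high reads with aristolochic acid and share those libraries, so these counts are a description.

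Among these, the log2 fold change was -3.98 ± 0.60 at RPLP0P3 (adjusted p = 0.0023), -3.50 ± 0.66 at CKAP2P1, -2.87 ± 0.40 at KIF28P, -2.80 ± 0.41 at C6orf201 and -2.39 ± 0.36 at ACTBP14. CTAGE11P was at -2.13 ± 0.48 (adjusted p = 0.015), and its adjusted p was 0.051 without aristolochic acid library 4 and 0.057 without MYDGF library 4. Some of the active genes at these loci were lower too, with NFKBIA at -0.80 (adjusted p = 7.9e-04) and KIFBP at -0.97 (adjusted p = 0.0027). ZNF219, AHCTF1 and TBC1D4, the active genes at CKAP2P1, KIF28P and CTAGE11P, were not called (adjusted p = 0.98, 0.95 and 0.77). GPS2P1, AHSA2P and TMEM198B, which fell with aristolochic acid, were higher with MYDGF by 2.15 ± 0.47, 1.86 ± 0.31 and 0.95 ± 0.13. AHSA2P then had 9.50, 20.3 and 13.3 CPM, still below every untreated library. GAPDHP1 was higher by 0.82 ± 0.10 beside 0.60 for GAPDH, and ENSAP2 by 1.10 ± 0.16.

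The most abundant loci differed in direction with MYDGF. EEF1A1P5, near identical to the elongation factor gene EEF1A1, had 3804, 3851 and 3934 CPM in untreated, 3858, 3329 and 3595 CPM in aristolochic acid and 2823, 2928 and 3009 CPM in MYDGF libraries. The MYDGF libraries lay below all others, at -0.30 ± 0.05 against aristolochic acid (adjusted p = 0.0046), beside -0.30 for EEF1A1. RPS2P5 and PPIAP22, copies of a small-subunit ribosomal protein gene and of the cyclophilin A gene, were higher with MYDGF by 0.59 ± 0.06 and 0.33 ± 0.05. RPS2P5 had 941, 1043 and 1068 CPM with MYDGF against at most 772 CPM in any other library. Ribosomal protein copies as a family had 38 higher and 15 lower of 160 tested with MYDGF against aristolochic acid, where 14.7% of all genes tested were called in each direction, and translation factor copies had 4 higher and 7 lower of 31. Copies of mitochondrial DNA had 1 higher and 0 lower of 8.

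PKD1P6 moved in one direction in both comparisons. It had 16.2, 14.7 and 14.9 CPM in untreated, 30.2, 24.7 and 17.4 CPM in aristolochic acid and 50.9, 51.5 and 51.5 CPM in MYDGF libraries, and the groups did not overlap. It was higher by 0.66 ± 0.17 with aristolochic acid and by a further 1.09 ± 0.17 with MYDGF. PKD1, its closest coding gene, is 97.4% identical over 44.6% of the locus. PKD1 rose by 0.54 with aristolochic acid (adjusted p = 0.0077) and was at 0.40 with MYDGF against aristolochic acid (adjusted p = 0.053). PDXDC1, which PKD1P6 overlaps on the opposite strand, was at -0.89 (adjusted p = 2.0e-04) and -0.14 (adjusted p = 0.40).

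Against untreated cells, the MYDGF libraries had 258 loci higher (25.5%) and 94 lower (9.30%) of 1011, where 26.8% and 24.3% of all genes tested were. At 2-fold or more it was 141 and 32, where 11.5% and 7.25% were. Of the 48 loci that rose from near silence 43 were also higher by 2-fold or more in this comparison, and in 43 every MYDGF library lay above every untreated one, where 63.9% of all genes tested did not overlap. All 3 comparisons share libraries in pairs, and no overlap between them was tested.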

How the data were processed

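The authors deposited raw read counts per gene and, beside them, FPKM values made from those counts, per the file headers. The tools named by the submitters' processing notes are edgeR, HISAT2, SAMtools 1.3.1 and CASAVA 1.8, with the mouse build mm10, although the table lists human Ensembl IDs with GRCh38 positions. The counting tool, annotation release and strand setting were not found in the sources used here. Of the 9355 loci, 9343 were found in GENCODE 29, which gave strand and transcript sequence.

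All 62703 genes entered edgeR 4.0.16 (R 4.3.3) with TMM scaling, filterByExpr (minimum count 10, minimum total 15) and a quasi-likelihood fit of 3 groups over 9 libraries with 6 residual degrees of freedom. Adjusted p-values (Benjamini-Hochberg) cover the 18267 genes tested, with 0.05 as the threshold, and ± after a log2 fold change is its standard error. Totals of 10.9 to 14.3, in units of 1e6 counts, limit what can be seen at low loci. Intervals and floors (3 counts) cover counting error only. Single values per library were compared by exact permutation tests (scipy 1.17.1), which cannot go below 0.1. Libraries were thinned to the lowest total. The closest coding gene is the best blastn 2.17.0 hit among 82379 coding transcripts of GENCODE 29, found for 8550 loci, and replaces a match by symbol. The fit was tested on simulated counts, with changes set only at genes well above the level of near-silent loci, so rises there were not covered. The position rule was tested on invented loci.

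Members and lists were chosen with earlier results of these data known. Named loci are the 8 largest rises and falls of a comparison whose groups do not overlap at a mean of at least 1 CPM, the 8 most abundant loci, up to 4 of each list by adjusted p, and the 3 highest risen near-silent loci of each position; only some of these are printed. Alternatives were other scalings, filters, DESeq2 1.42.0, a replicate block, leaving out each library, and other limits for near-silent and active. DESeq2 for the near-silent loci by position was chosen after seeing the data. Replicate libraries differed by more than sampling noise (chi-square per degree of freedom 8.79 to 17.9), so none was counted as a duplicate.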

Additional observations from a re-analysis of the deposited data

Results flagged for a closer look

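The table also lists 5370 loci without symbol or gene type that its description calls pseudogenes, and which the rule above leaves out. A count was found at 844, 844 and 842 of them in untreated, 1153, 1357 and 1181 in aristolochic acid (mean 1230.33) and 1105, 992 and 1092 in MYDGF libraries. These numbers, which are not thinned for depth, did not overlap between untreated and aristolochic acid libraries (exact two-sided permutation p = 0.1). The summed level of these loci did overlap, at 4633, 4657 and 4889 CPM in untreated and 4690, 4569 and 4366 CPM in aristolochic acid libraries (exact permutation p = 0.3). Of these loci 291 were tested, with 99 higher and 41 lower after aristolochic acid, beside 29.7% and 29.3% of all genes tested. Of these 291, 106 were under 1 CPM in untreated cells, where a locus passes the filter more easily if it is high, and they gave 69 of the 99.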

How the results depend on the processing

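Of 231 values recomputed for the comparisons, 170 stayed within the limits set (counts within 1.5 times, other values within the spread between libraries) and 61 did not. With aristolochic acid, the 283 higher loci became 429 with DESeq2, 501 without the filter and 119 over loci that overlap no other gene, and the 174 lower ones became 71 over the latter. With MYDGF against aristolochic acid the same loci gave 44 higher and 65 lower, and with MYDGF against untreated 108 higher and 41 lower; fewer loci enter there. Leaving out single libraries gave 70 to 128 higher and 77 to 191 lower loci for MYDGF against aristolochic acid. The replicate number was also fitted as a replicate block, although pairing was not borne out: correlations of same-numbered deviations ran from -0.16 to 0.02. With the block, 117 loci were higher and 39 lower after aristolochic acid, 0 and 0 with MYDGF against aristolochic acid and 103 and 45 with MYDGF against untreated. These 0 calls stand beside 107 and 125 without the block, 91 and 140 in DESeq2 without it, and 85 and 98 in edgeR at an unadjusted p under 0.05 with it.

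The share difference between aristolochic acid and untreated libraries turned from -0.037 to 0.034 percentage points without the 10 loci with the most counts, that of unprocessed loci from -0.017 to 0.0059, and to 0.0046 over loci that overlap no other gene, and that of transcribed unprocessed loci from 0.023 to 0.013 and 0.000163. The difference in loci detected, 644, was 267 at 5 counts or more. The risen near-silent loci (28 beyond the 3' end on the same strand, 13 at the other same-strand positions, 7 elsewhere) were 16, 6 and 4 at 0 untreated counts, 46, 29 and 13 at up to 10 counts, 129, 69 and 75 without the filter and 105, 52 and 48 with DESeq2. Over loci that overlap no other gene the last 2 were 6 and 2. Leaving out single libraries gave 29 to 51, 13 to 25 and 7 to 17. The summed difference with no active gene within 100 kb, 37.5 CPM, was 19.2 CPM without the top 10 loci. The cause was not tested where none is given. Among 1309 recomputed values of 62 named loci, 77 lost their call, most often (36) under the block, and 0 turned direction; those outside the block are at CTAGE11P, EEF1A1P6, HNRNPA1P30, FTH1P7, RPL23AP42, PDIA3P1 and RPL13AP5. At these totals, a locus under about 10 counts in every library cannot be tested.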
